A study of Homo sapiens with 4 samples.

Results

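The genes described here encode chains of the MHC class I molecule and one regulator of their transcription. They are the heavy chain genes HLA-B, HLA-C, HLA-E, HLA-F and HLA-G, the light chain gene B2M, and NLRC5. They were chosen by gene symbol, and 7 of the 46427 rows of the count sheets carried one of these symbols. All 7 passed the filter on low counts. The cells were NCI-H1944, an established human lung cancer line, grown in culture and sampled in 2 groups of 2 libraries. The BAY1217389 group was kept for 48 h in BAY1217389, an inhibitor of the mitotic kinase MPS1 (TTK). The DMSO group was kept for the same time in the vehicle, and RNA from both groups was taken 24 h after the agent was washed out. The titles number the libraries as biological replicates without saying what separated them, so p-values measure only the spread between these libraries. The libraries held 43661342 and 43067647 reads in genes after BAY1217389 and 39332931 and 38904473 reads after DMSO. The question of the series concerns negative regulators of STING, an adaptor of the response to DNA in the cytosol.

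A class I molecule is a heavy chain paired with the light chain, beta-2 microglobulin, and it carries a short peptide from inside the cell to the surface. HLA-B and HLA-C are classical heavy chains that show peptides to CD8+ T cells and bind receptors of natural killer cells. HLA-E, HLA-F and HLA-G are less variable heavy chains, and HLA-E and HLA-G are known for binding inhibitory receptors of immune cells. NLRC5 is a protein of the NLR family that enters the nucleus and raises transcription of class I genes, together with RFX, CREB or ATF, and NF-Y factors bound at the promoter. Interferons raise class I genes both through NLRC5 and through interferon-response elements near the gene starts.

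Promoter letters known to be read by CREB or ATF and by NF-Y are shown, with those of interferon-response elements and NF-kB sites. Letters read by RFX were not searched. The windows are given for the members with an entry in the RefSeq promoter table, which were 5 of 7 (HLA-B, HLA-C, HLA-F, HLA-G and B2M). HLA-E and NLRC5 had no entry. Each window runs from 250 bases before to 50 bases after the annotated start, 5′ to 3′ on the gene's strand, from the GRCh38.p14 assembly. The windows are chr6:31357130-31357429 on the minus strand for HLA-B, chr6:31272043-31272342 on the minus strand for HLA-C, chr6:29723184-29723483 on the plus strand for HLA-F, chr6:29827575-29827874 on the plus strand for HLA-G (the most downstream of its 3 listed starts) and chr15:44711267-44711566 on the plus strand for B2M. These are reference letters, not those of H1944 alleles. Capitals mark matches, on either strand, to an interferon-response element in a longer spelling (GAAA, any 2 bases, GAAA) or a shorter one (GAA, any 2 bases, GAAA), to the core of a CRE (TGACG), to a CCAAT box (CCAAT) and to an NF-kB site (GGG, any 3 bases, T, any base, CC).
HLA-B: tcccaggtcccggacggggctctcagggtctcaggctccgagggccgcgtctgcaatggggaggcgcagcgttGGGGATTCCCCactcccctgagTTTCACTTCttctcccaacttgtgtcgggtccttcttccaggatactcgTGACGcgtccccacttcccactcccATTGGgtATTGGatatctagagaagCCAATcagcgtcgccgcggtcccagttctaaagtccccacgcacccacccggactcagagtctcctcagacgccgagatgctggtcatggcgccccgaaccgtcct
HLA-C: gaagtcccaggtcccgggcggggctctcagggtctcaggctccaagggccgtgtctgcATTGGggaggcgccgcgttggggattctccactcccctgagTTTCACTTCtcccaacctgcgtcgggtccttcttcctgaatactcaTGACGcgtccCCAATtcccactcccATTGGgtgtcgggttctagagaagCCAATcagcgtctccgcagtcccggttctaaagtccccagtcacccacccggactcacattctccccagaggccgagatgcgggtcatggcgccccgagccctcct
HLA-F: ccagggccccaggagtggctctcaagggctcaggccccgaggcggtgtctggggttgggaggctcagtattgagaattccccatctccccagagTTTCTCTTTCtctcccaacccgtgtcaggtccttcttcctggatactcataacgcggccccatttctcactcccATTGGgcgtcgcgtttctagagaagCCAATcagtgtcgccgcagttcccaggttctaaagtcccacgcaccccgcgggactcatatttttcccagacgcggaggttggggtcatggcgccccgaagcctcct
HLA-G: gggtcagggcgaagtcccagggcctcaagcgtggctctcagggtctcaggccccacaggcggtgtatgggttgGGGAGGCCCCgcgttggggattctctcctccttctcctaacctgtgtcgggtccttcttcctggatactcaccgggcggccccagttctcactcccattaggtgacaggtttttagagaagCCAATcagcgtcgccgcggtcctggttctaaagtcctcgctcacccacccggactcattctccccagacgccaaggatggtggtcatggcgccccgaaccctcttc
B2M: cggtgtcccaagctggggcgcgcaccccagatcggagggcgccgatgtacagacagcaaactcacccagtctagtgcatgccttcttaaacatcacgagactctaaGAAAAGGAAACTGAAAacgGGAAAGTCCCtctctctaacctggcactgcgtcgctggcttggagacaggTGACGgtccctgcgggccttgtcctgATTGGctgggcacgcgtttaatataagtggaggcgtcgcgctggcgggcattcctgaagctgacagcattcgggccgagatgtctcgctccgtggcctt

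HLA-B and HLA-C each held the shorter interferon-response spelling on the opposite strand, and HLA-F and B2M held the longer one. Of all 35116 promoter windows searched, 7.66% held the shorter spelling and 3.57% the longer one. HLA-B, HLA-C and B2M held the CRE core, which 24.6% of windows held. All 5 windows held at least 1 CCAAT box, as did 34.6% of windows. The NF-kB spelling lay in HLA-B, where it matched on both strands with overlapping letters, in HLA-G and in B2M, against 21.5% of windows. Both matches to the longer spelling in B2M overlapped each other. The HLA-G window held neither interferon-response spelling nor the CRE core, and the other two HLA-G windows held none of the 5 motifs. With only the 250 bases before the start, each share of windows was lower (6.56%, 3.02%, 21.2%, 32.0% and 18.9%, in the order above), and every match listed stayed inside. A match is a description of letters and not a measured binding site. The windows of HLA-B and HLA-C were 88.5% identical, those of HLA-B and HLA-F 79.7%, those of HLA-B and HLA-G 73.5%, and those of HLA-B and B2M 47.6%, in global alignments.

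**Figure D1:**
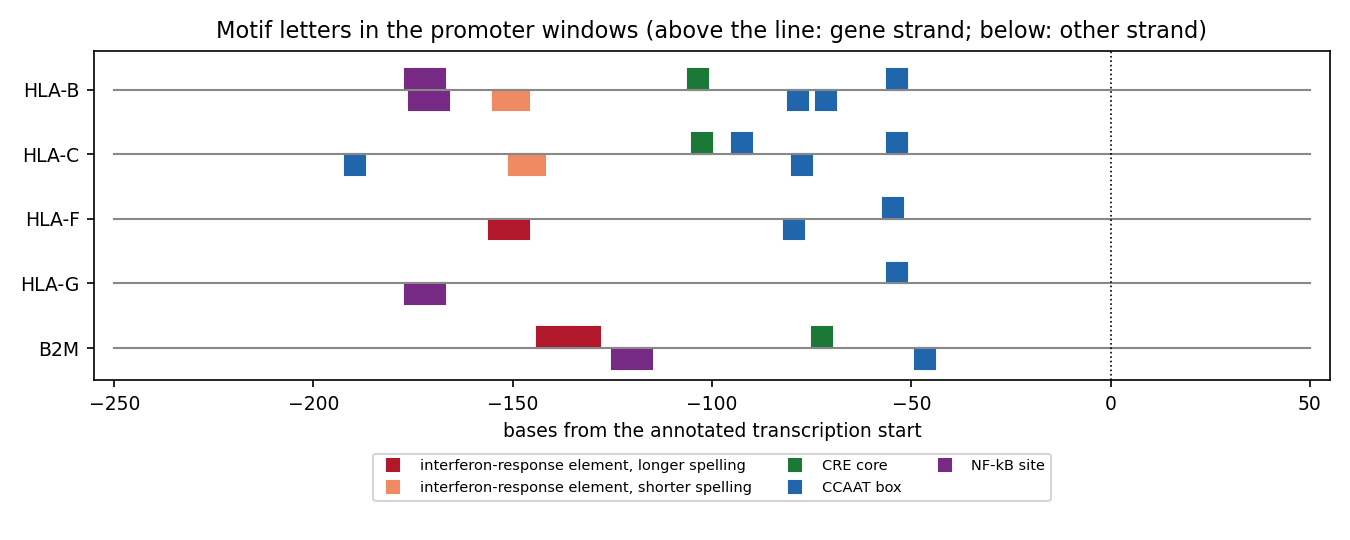
Positions of motif letters in the promoter windows of HLA-B, HLA-C, HLA-F, HLA-G and B2M, in bases from the annotated start (dotted line), with matches on the gene's strand above each line and on the other strand below it. The CCAAT box nearest the start lies at about the same distance in the 4 HLA windows, and HLA-G has no interferon-response spelling and no CRE core.

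Of these genes, 6 rose together after BAY1217389, by 2.32-fold to 4.84-fold, and HLA-G did not pass the test. Levels are a gene's reads scaled to the TMM-adjusted library size (CPM), and a mean ± SD covers 2 libraries, so its SD is itself imprecise. A gene passed where its p from the edgeR quasi-likelihood fit, adjusted by Benjamini and Hochberg over the 16738 genes tested, was under 0.05. Of those genes, 27.8% passed in either direction, 14.5% passed as higher, and 3.21% were higher by at least 1 on the log2 scale, as were 6 of the 7 members. Both BAY1217389 libraries stood above both DMSO libraries in 6 of the 7 members, against 30.5% of tested genes. The median log2 fold change was 1.52 for the 7 members and 0.00 for all tested genes. Without HLA-G, an alternative added after seeing the data, the count stayed at 6 and the median was 1.75. Because whole cultures were sequenced, more cells expressing a gene and more RNA per cell cannot be told apart.

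NLRC5, the regulator, had 73.2 and 78.5 CPM in the BAY1217389 libraries, against 16.4 and 14.9 CPM in the DMSO libraries. The groups lay far apart, and the spread between the libraries of a group was small beside the gap. The corresponding read counts were 3188 and 3357 after BAY1217389 and 645 and 585 after DMSO. The log2 fold change was 2.27 (SE 0.06, a 4.84-fold rise, edgeR adjusted p = 3.97e-26), the largest among the 7 members and rank 211 of the 16738 genes tested.

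Among the classical heavy chains, HLA-B had 202 and 210.2 CPM in the BAY1217389 libraries, against 51.5 and 53.2 CPM in the DMSO libraries. Its libraries did not overlap between groups, and the log2 fold change was 1.98 (SE 0.04, 3.94-fold, edgeR adjusted p = 3.72e-30). HLA-C had 1056 and 1099 CPM in the BAY1217389 libraries, against 460 and 467 CPM in the DMSO libraries (log2 fold change 1.22, SE 0.03, 2.32-fold, edgeR adjusted p = 1.43e-29). The rise of HLA-C was the smallest among the 6 genes that passed. The fold changes of HLA-B and HLA-C differed by 0.76 on the log2 scale. Each read of HLA-C was matched by 0.191 reads of HLA-B in both BAY1217389 libraries, against 0.112 and 0.114 reads in the DMSO libraries. These ratios did not overlap between groups. The difference between the fold changes of these genes was not tested.

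Among the less variable heavy chains, HLA-F had 79.4 and 82.3 CPM in the BAY1217389 libraries, against 18.5 and 18.6 CPM in the DMSO libraries. It had the largest rise of the heavy chains that passed, with no overlap between groups (log2 fold change 2.12, SE 0.06, 4.35-fold, edgeR adjusted p = 1.85e-26). HLA-E had 285 and 292 CPM in the BAY1217389 libraries, against 105 and 106 CPM in the DMSO libraries. Its rise lay between those of HLA-C and HLA-B, again without overlap (log2 fold change 1.45, SE 0.03, 2.72-fold, edgeR adjusted p = 4.93e-28).

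HLA-G, the remaining heavy chain, was not called. It had 0 and 298 reads in the BAY1217389 libraries (replicates 1 and 2), against 0 and 150 reads in the DMSO libraries. Its reads thus lay in replicate 2 of both groups, and replicate 1 of both groups was listed at 0. The groups overlapped, and the log2 fold change was 0.86 with an SE of 2.77 (edgeR adjusted p = 0.882). Its sign turned without BAY1217389 replicate 2 (-9.29) and without DMSO replicate 1 (-0.14), and these values depend on how a 0 is treated in the fit. A count of 0 allows up to 3 reads, which is 0.0687 CPM in BAY1217389 replicate 1 and 0.0763 CPM in DMSO replicate 1, limits that cover counting error only. Between the libraries of replicate number 2 alone, HLA-G stood at 6.97 CPM after BAY1217389 and 3.83 CPM after DMSO. Just 2 rows of the 46427 had 0 reads in both libraries of replicate number 1 and at least 20 reads in both of number 2, HLA-G and LOC101929240 (named after its values were seen). The reverse, with the numbers exchanged, held for 0 rows. The same rule with BAY1217389 replicate 1 and DMSO replicate 2 at 0 gave 1 row. With BAY1217389 replicate 2 and DMSO replicate 1 at 0 it also gave 1 row. With at least 10 reads in place of 20, 6 rows had the pattern of HLA-G and 3 the reverse. With at least 5 reads, 39 rows had the pattern of HLA-G and 35 the reverse.

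B2M, the light chain shared by all class I molecules, had 1114 and 1071 CPM in the BAY1217389 libraries, against 391 and 373 CPM in the DMSO libraries. The groups did not overlap, and the log2 fold change was 1.52 (SE 0.03, 2.86-fold, edgeR adjusted p = 2.06e-29). The 5 heavy chain genes and B2M together took 0.273% and 0.274% of all reads in the BAY1217389 libraries, against 0.103% of reads in each DMSO library. The 5 heavy chains gave 1.46 and 1.58 reads for each B2M read in the BAY1217389 libraries, against 1.62 and 1.74 reads in the DMSO libraries.

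**Figure D2:**
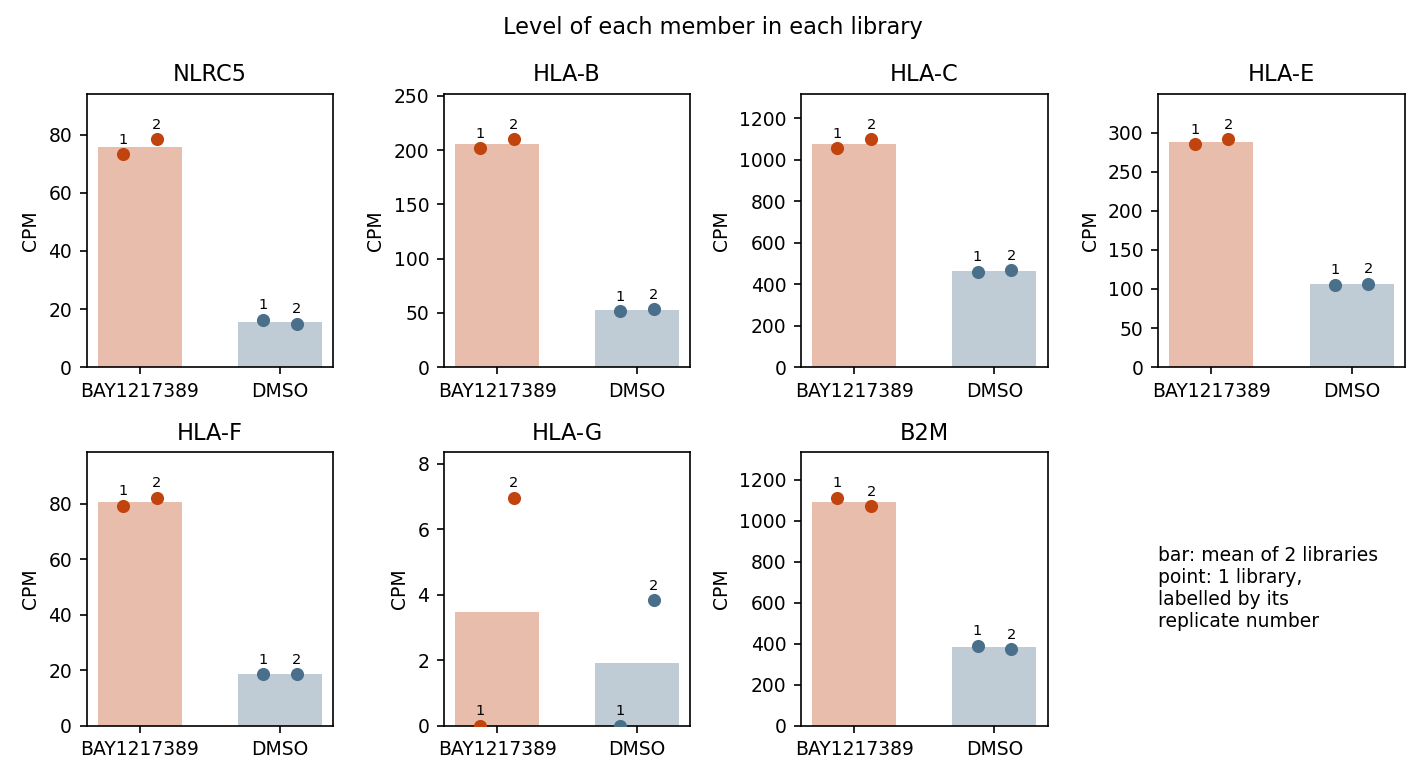
CPM of each gene in each of the 4 libraries (points, numbered by replicate) with the mean of 2 libraries (bars), BAY1217389 left of DMSO in each panel and each panel with its own axis from 0. The BAY1217389 points lie above the DMSO points in every panel except HLA-G, where the replicates numbered 1 lie at 0 in both groups.

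Reads were also divided by the length of 1 principal GENCODE transcript per gene, so that genes can be set in order, as CPM per kb. After BAY1217389 the order was HLA-C (702 ± 19.5 CPM per kb), B2M (641 ± 17.7), HLA-B (133 ± 3.77), HLA-E (111 ± 1.68), HLA-F (49.4 ± 1.26), NLRC5 (11.1 ± 0.55) and HLA-G (0 and 4.41 CPM per kb). After DMSO it was HLA-C (302 ± 3.41 CPM per kb), B2M (224 ± 7.73), HLA-E (40.7 ± 0.30), HLA-B (33.9 ± 0.81), HLA-F (11.4 ± 0.05), NLRC5 (2.30 ± 0.15) and HLA-G (0 and 2.43 CPM per kb). No neighbouring pair in either order overlapped between its libraries, apart from NLRC5 and HLA-G after DMSO, where HLA-G replicate 2 exceeded both NLRC5 libraries. HLA-B and HLA-E thus changed places between the groups. The order rests on the transcript lengths used, which were 1547 bases for HLA-B and 2601 bases for HLA-E.

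The make-up of the heavy chain reads shifted toward HLA-B and HLA-F. HLA-B held 12.4% of the reads of the 5 heavy chain genes in both BAY1217389 libraries (95% exact interval 12.2 to 12.7% in each), against 8.10% (7.77 to 8.45%) and 8.20% (7.87 to 8.54%) in the DMSO libraries. HLA-F held 4.89% and 4.87% of these reads in the BAY1217389 libraries, against 2.91% and 2.87% in the DMSO libraries. HLA-C held 65.1% and 65.0% in the BAY1217389 libraries, against 72.4% and 71.9% in the DMSO libraries. HLA-E held 17.6% and 17.3% in the BAY1217389 libraries, against 16.6% and 16.4% in the DMSO libraries, the smallest shift of the 4 genes with reads in every library. The shares of these 4 genes did not overlap between groups, although the intervals of HLA-E overlapped between BAY1217389 replicate 2 (17.0 to 17.5%) and DMSO replicate 1 (16.1 to 17.1%). The intervals cover counting error only, because PCR copies cannot be told from separate molecules here. Tested as a single row, the summed reads of the 5 genes rose by 1.37 on the log2 scale (SE 0.02, edgeR adjusted p = 1.11e-31), and a read moved from one of the 5 genes to another leaves this sum as it is. These 5 are not all class I heavy chain genes, and the sum speaks for them alone.

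**Figure D3:**
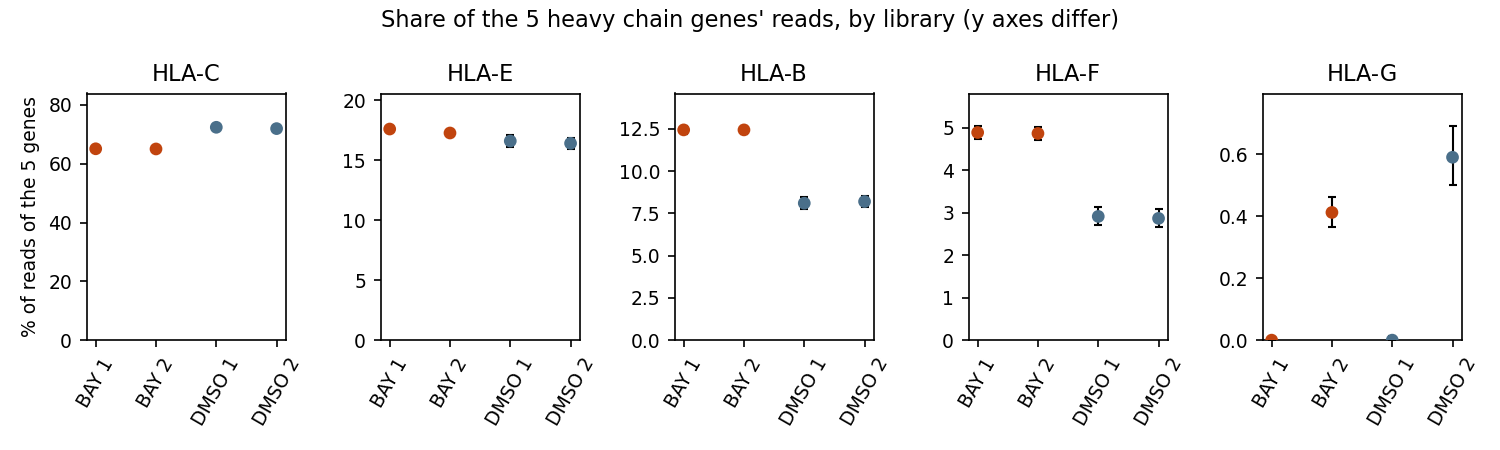
Share of the summed reads of HLA-B, HLA-C, HLA-E, HLA-F and HLA-G that each gene held in each library, in percent, with exact binomial 95% intervals (bars, often smaller than the points) and a separate axis from 0 for each gene. HLA-B and HLA-F take larger shares after BAY1217389 and HLA-C a smaller one, and HLA-G has no reads in the replicates numbered 1.

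Class I genes are close copies, so the letters that could confuse a read were counted. Of the 75-base stretches of the principal transcript, 36.1% in HLA-F, 23.5% in HLA-G, 15.4% in HLA-B, 2.02% in HLA-E and 1.98% in HLA-C also occurred, on either strand, in a transcript of another gene. For B2M and NLRC5 the share was 0%. With other members alone the shares were 0% for HLA-F and HLA-B, 2.66% for HLA-G, 1.62% for HLA-E and 0.0684% for HLA-C. These shares depend on the length chosen. In 50-base stretches the shares with other members were 1.51% for HLA-F, 2.2% for HLA-B, 4.38% for HLA-G, 3.96% for HLA-E and 3.77% for HLA-C. At that length, 41.7% of HLA-F and 21% of HLA-B stretches occurred in a transcript of any other gene. HLA-F shared 12.1% of its stretches with its antisense gene HLA-F-AS1, which held 18 and 12 reads in the BAY1217389 libraries and 31 and 16 reads in the DMSO libraries. The sources used here do not give the read length, the aligner or its treatment of reads with several matches, so the levels of single HLA genes are uncertain, and H1944 alleles may differ from the reference used for this count. The part of shared reads in the HLA-G counts was not tested.

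The genes of peptide supply rose with the chains. Of 14 genes of peptide loading and trimming, 13 were higher and 1 did not pass, while 14.5% of all tested genes were higher. The list's median was 0.80 on the log2 scale. Those with the smallest p-values were TAP1 and TAP2, which form the peptide transporter, PSMB8, a catalytic subunit of the immunoproteasome, and TAPBP (tapasin), which holds heavy chains at the transporter. TAP1 averaged 309 ± 6.69 CPM after BAY1217389 and 67.1 ± 1.58 CPM after DMSO (log2 fold change 2.20, SE 0.04). TAP2 averaged 151 ± 6.05 CPM after BAY1217389 and 56.8 ± 0.43 CPM after DMSO (1.41, SE 0.04), PSMB8 averaged 111 ± 1.89 CPM against 41.0 ± 0.74 CPM (1.43, SE 0.05), and TAPBP 245 ± 3.96 CPM against 136 ± 0.78 CPM (0.85, SE 0.03). The largest rise of the list, chosen after its values were seen, was that of PSMB9, another immunoproteasome subunit (2.95, SE 0.10). The general chaperone gene CANX, the member that did not pass, had 1158 and 1137 CPM in the BAY1217389 libraries and 1166 and 1159 CPM in the DMSO libraries (log2 fold change -0.02, edgeR adjusted p = 0.606).

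Of 15 factors that act at class I promoters, 8 rose, 1 fell and 6 were not called, and the median lay at 0.17 on the log2 scale. Among all tested genes, 14.5% were higher and 13.3% lower. STAT2, which carries interferon signals to the nucleus, averaged 291 ± 5.92 CPM after BAY1217389 and 80.9 ± 5.46 CPM after DMSO (log2 fold change 1.85, SE 0.04). The interferon regulatory factor IRF1 averaged 54.1 ± 0.46 CPM after BAY1217389 and 19.5 ± 0.45 CPM after DMSO (1.48, SE 0.06), and IRF9, the partner of STAT2, 90.0 ± 1.33 CPM against 46.0 ± 0.70 CPM (0.97, SE 0.05). Of the RFX complex that works with NLRC5, RFX5 was higher (0.42, SE 0.06, edgeR adjusted p = 2.32e-07), while RFXAP (0.14, SE 0.13) and RFXANK (0.11, SE 0.10) did not pass. Of the NF-Y subunits, which bind CCAAT boxes, NFYB was lower (-0.16, SE 0.06, edgeR adjusted p = 0.0292), and NFYA (-0.05, SE 0.05) and NFYC (0.05, SE 0.05) did not pass. The list had 0 lower calls, and thus no NFYB call, with DESeq2, with no filter on low counts, without DMSO replicate 1 and without BAY1217389 replicate 2. CREB1 (0.03, SE 0.07) and ATF1 (0.07, SE 0.04), which read the CRE, did not pass either. The RFX, NF-Y, CREB1 and ATF1 genes were set out by complex after their values were seen.

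NLRC5 is related to CIITA, the corresponding regulator of MHC class II genes, and CIITA had 37 and 18 reads in the BAY1217389 libraries and 6 and 22 reads in the DMSO libraries (log2 fold change 0.83, SE 0.54, edgeR adjusted p = 0.290). Of 13 class II genes with CIITA, 4 were listed at 0 in every library and 7 were tested. Of the 7, 2 were higher, against 14.5% of all tested genes, and the list was not tested against that share. The 2 were HLA-DMA, with 104 and 95 reads in the BAY1217389 libraries and 51 and 53 reads in the DMSO libraries, and HLA-DMB, with 55 and 40 reads against 19 and 19 reads. Both encode the molecule that exchanges peptides on class II. Neither HLA-DOB (1.92, SE 0.78) nor CD74 (0.96, SE 0.57) passed, and HLA-DRA had 8 and 16 reads in the BAY1217389 libraries against 11 and 6 reads in the DMSO libraries. The 13 genes summed to 6.11 and 5.66 CPM after BAY1217389 and 3.45 CPM in each DMSO library. The count of 2 fell to 0 with DESeq2 (2 genes at an unadjusted p under 0.05), without BAY1217389 replicate 1 (1 gene) and without BAY1217389 replicate 2 (2 genes), and to 1 without DMSO replicate 1.

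Of 15 members of the family other than NLRC5, 7 were tested, 2 rose, 1 fell and 4 were not called (median 0.25 on the log2 scale). The shares over all tested genes were 14.5% higher and 13.3% lower. NOD2, a sensor of bacterial cell walls, had 43 and 49 reads in the BAY1217389 libraries and 24 and 6 reads in the DMSO libraries (1.47, SE 0.46). NLRP10 had 17 and 16 reads in the BAY1217389 libraries and 4 and 4 reads in the DMSO libraries (1.88, SE 0.72), and NLRP1 did not pass (0.68, SE 0.39). NLRX1, a mitochondrial member, averaged 20.1 ± 1.06 CPM after BAY1217389 and 23.8 ± 1.41 CPM after DMSO (-0.24, SE 0.08). The list's calls numbered 0 with DESeq2 and without BAY1217389 replicate 1 (2 genes at an unadjusted p under 0.05 in each), and 1 without each of the other libraries in turn.

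Of 14 genes related to class I, 13 could be tested, 6 rose and 7 were not called (median 0.26 on the log2 scale). For all tested genes the share higher was 14.5%. RAET1L, a ligand of the natural killer receptor NKG2D, had 216 and 296 reads in the BAY1217389 libraries and 45 and 43 reads in the DMSO libraries (log2 fold change 2.40, SE 0.21), with close copies among its family. PROCR, a receptor of protein C, rose by 0.66 (SE 0.07), MICB, another NKG2D ligand, by 0.48 (SE 0.10) and MR1, which presents vitamin B metabolites, by 0.36 (SE 0.07). Of 10 class I pseudogenes and noncoding genes of the region, 7 were tested and 5 were higher, with a median of 0.92. HLA-H, a pseudogene, averaged 38.0 ± 0.87 CPM after BAY1217389 and 19.1 ± 0.75 CPM after DMSO (0.99, SE 0.07), HCP5 rose by 0.87 (SE 0.16), HCG4 by 0.92 (SE 0.23) and HLA-L by 0.52 (SE 0.18). This last count of 5 was 3 with DESeq2 and without BAY1217389 replicate 1, and 2 without BAY1217389 replicate 2.

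Genes of class I folding, retrieval and turnover showed calls in both directions. Of the 17 in the list, all tested, 5 rose, 6 fell and 6 were not called (median -0.04 on the log2 scale). Among all tested genes, 14.5% were higher and 13.3% lower. MARCHF4, a ubiquitin ligase that can take class I from the surface, averaged 15.7 ± 0.35 CPM after BAY1217389 and 6.24 ± 0.44 CPM after DMSO (log2 fold change 1.33, SE 0.11). EHD1, a factor of endosomal recycling, rose by 0.34 (SE 0.06), the translocation gene TRAM1 by 0.11 (SE 0.03) and DERL2, of the degradation route out of the endoplasmic reticulum, by 0.20 (SE 0.06). The 6 that fell, all named after their values were seen, were MARCHF9 (-0.24, SE 0.08), TMEM129 (-0.17, SE 0.05), SPPL2A (-0.13, SE 0.04), SEL1L (-0.12, SE 0.04), UBE2J1 (-0.12, SE 0.05) and VCP (-0.07, SE 0.03). The 11 calls became 3 higher and 0 lower with DESeq2, 2 higher and 0 lower without DMSO replicate 2, 4 higher and 3 lower without DMSO replicate 1, and 3 higher and 1 lower without BAY1217389 replicate 1. Without BAY1217389 replicate 2 there were 6 higher and 3 lower calls.

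**Figure D4:**
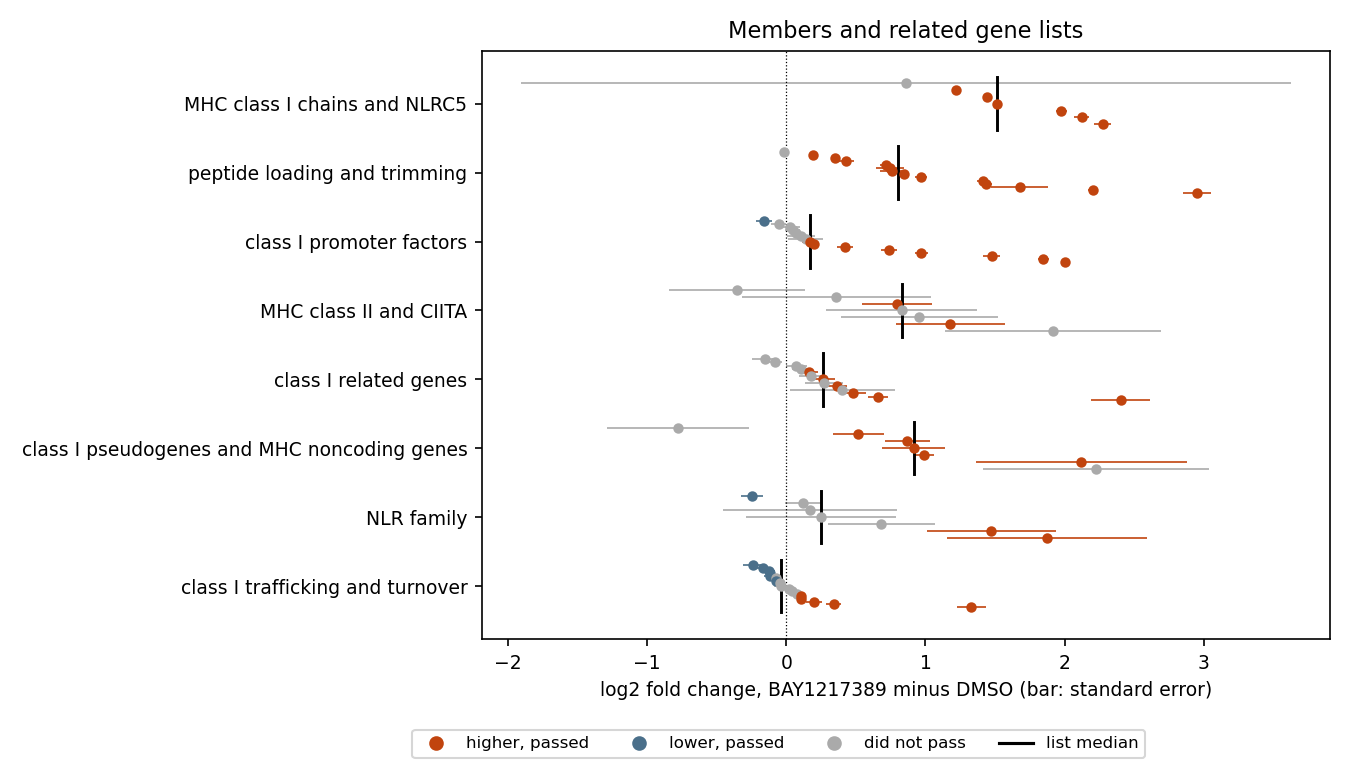
Log2 fold change (BAY1217389 minus DMSO, bars are standard errors) of every tested member and of every tested gene of 7 related lists, coloured by call, with the median of each list as a black line. The 6 members that passed lie between 1.22 and 2.27, while HLA-G has a standard error of 2.77.

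Of 9 tested protein-coding neighbours examined beside the members, placed by the gene order in RefSeq, 4 rose, 1 fell and 4 were not called. The shares over all tested genes were 14.5% higher and 13.3% lower, and 9 neighbours are few to set beside them. Beside NLRC5, HERPUD1 was not called (0.06, SE 0.04, edgeR adjusted p = 0.212) and CPNE2 was lower (-0.28, SE 0.07, edgeR adjusted p = 0.00293). Beside HLA-E, RPP21 (-0.10, SE 0.10) and GNL1 (-0.05, SE 0.05) did not pass, and beside HLA-C, POU5F1 did not pass (-0.10, SE 0.51). MICA, beside HLA-B, was higher by 0.17 (SE 0.06, edgeR adjusted p = 0.0490), and GABBR1, beside HLA-F, by 0.38 (SE 0.12, edgeR adjusted p = 0.0182). Both neighbours of B2M were higher from few reads. TRIM69 had 51 and 47 reads in the BAY1217389 libraries and 0 and 9 reads in the DMSO libraries, and PATL2 had 37 and 38 reads against 0 and 10 reads.

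The genes whose pattern over the 4 libraries was most like that of NLRC5 were OAS1, TAP1, PARP14 and PARP9. Likeness was the root mean square difference of log2 CPM centred on each gene's mean, over 10761 genes compared, and it was 0.03 for OAS1, 0.05 for TAP1, 0.06 for PARP14 and 0.07 for PARP9. Their log2 fold changes lay at 2.26, 2.20, 2.33 and 2.37 in the same order. To the median profile of the 7 members the nearest were DHX58 (0.11), PML (0.12), TINAGL1 (0.12) and APOL1 (0.12). Their log2 fold changes lay at 1.73, 1.71, 1.70 and 1.70, above the members' median of 1.52. That profile is the median taken in each library over all 7 members. HLA-G, at 0 reads in replicate 1 of both groups, is among them, so the profile shifts with the replicate number and matches no single member.

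Of 14 leukocyte markers, 7 were listed at 0 in every library, among them PTPRC, CD3D, MS4A1, CSF1R, TYROBP and NKG7, and the 14 summed to 4.34 and 5.70 CPM in the BAY1217389 libraries and 3.38 and 4.60 CPM in the DMSO libraries. Of the 3 tested, LYZ was higher, with 17 and 33 reads in the BAY1217389 libraries and 0 and 5 reads in the DMSO libraries. The other 2, ITGAM and CD14, did not pass and gave most of the sum in every library. ITGAM had 83 and 109 reads in the BAY1217389 libraries and 63 and 98 reads in the DMSO libraries. CD14 had 71 and 90 reads in the BAY1217389 libraries and 58 and 61 reads in the DMSO libraries. The 9 stromal and endothelial markers summed to 48.3 and 47.8 CPM in the BAY1217389 libraries and 34.2 and 30.5 CPM in the DMSO libraries, nearly all of it from DCN, LUM and COL1A1. All 4 of these markers that were tested were higher, LUM by 0.61 (SE 0.10), DCN by 0.47 (SE 0.08), COL1A1 by 0.59 (SE 0.15) and PECAM1 by 0.94 (SE 0.32) on the log2 scale. COL1A2 was at 0 in every library, and COL3A1 had at most 6 reads. The 8 epithelial markers summed to 4848 and 5008 CPM in the BAY1217389 libraries and 4166 and 4173 CPM in the DMSO libraries, mostly KRT8 and KRT18. KRT19 was listed at 0 in every library and EPCAM held 75 to 129 reads. Of the 7 epithelial markers tested, 4 were higher and 0 lower. The 4 were CLDN4 (0.64, SE 0.06), KRT8 (0.29, SE 0.02), KRT18 (0.19, SE 0.02) and CDH1 (0.16, SE 0.06). Among all tested genes, 14.5% were higher. The part of the stromal and epithelial marker differences in the results above was not tested.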

How the data were processed

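RNA was extracted with an RNeasy kit and made into TruSeq Stranded mRNA libraries, per the labels' protocols. Counts were deposited by the authors as whole numbers of reads for each gene. The submitters' processing notes name the build hg18, while aligner, counter, read length and use of strand are named in none of the sources used here. The rows carry RefSeq identifiers, some of them later than that build, so the gene models behind each HLA row are uncertain. A further 4 columns named for none of these samples were not used. Rows with 0 reads in every library numbered 21455, and 0 rows named no gene.

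Counts were fitted in R 4.3.3 with edgeR 4.0.16 (filterByExpr with minimum count 10 and minimum total 15, TMM factors of 0.994 to 1.01, treatment as the term, robust quasi-likelihood test, two-sided), which kept 16738 genes. The fit had 2 residual degrees of freedom and 31.1 prior ones. The script was tested on simulated data. Replicates varied beyond counting noise, with a chi-square per degree of freedom of 3.93 for BAY1217389 and 3.74 for DMSO. Alternatives used DESeq2 1.42.0, limma 3.58.1, other filters and factors, thinning, a replicate block and each library left out. The members and lists were chosen with earlier results of these data known. Named were the 7 members, up to 4 genes of each list by smallest p (some items are not reported here), and the 4 genes most like NLRC5 or the members' median. Promoters came from RefSeq GRCh38.p14 and transcripts from GENCODE 29, for lengths and letters alone.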

Additional observations from a re-analysis of the deposited data

How the results depend on the processing

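The calls and directions of NLRC5, HLA-B, HLA-C, HLA-E, HLA-F and B2M held under all 11 alternatives, as did that of the summed heavy chains (1.34 to 1.39). HLA-G was not tested with the stricter filter, and its log2 fold change over the libraries left out ran from -9.29 to 10.2. It passed with the replicate block alone (0.86, edgeR adjusted p = 0.0232). Labels do not say that equal numbers mark a shared batch, and deviations of same-numbered libraries correlated at 0.044 over 16738 genes. The block gave 2466 genes higher and 2326 lower, against 2428 and 2232 without it, and raised the members called to 7. DESeq2 called 3020 of 16738 genes against 4660, and by list it called 3 pseudogenes and noncoding genes, 3 trafficking genes, 0 class II genes and 0 NLR genes (2 of each at an unadjusted p under 0.05). The stricter filter gave 2, 0 and 1 for the pseudogene, class II and NLR lists, and 3 pseudogenes were called without a filter. Over libraries left out, counts ran from 2 to 5 for pseudogenes, 2 to 9 for trafficking, 0 to 2 for class II and 0 to 1 for NLR genes, and the cause was not tested beyond the fewer libraries and genes that each setting holds. With 1 library left in a group, that library is assumed to vary like the others. The median log2 fold change of all genes moved by at most 0.03. Class II genes other than HLA-DMA and HLA-DMB held at most 37 reads in any library, so small differences in them are not detectable at this depth.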
